A study of Homo sapiens with 12 samples.

Results

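The BCL2 family sets whether a cell under stress keeps its mitochondria intact. The 10 family genes described here were chosen by name: 4 inhibitors of cell death (BCL2, BCL2L1, MCL1 and BCL2A1) and 6 promoters of it, namely BAX and BAK1, which form pores, and BID, BIK, BCL2L11 and PMAIP1, which carry only the BH3 segment of the family. The genes were chosen with earlier results of these data known, so their counts beside the shares over all genes are descriptions. All 10 had a probe set of their own among the 19775 genes that the array annotation named. All 10 were among the 14080 genes bright enough to test. Together they were read by 31 probe sets, groups of short probes that each give 1 signal for a transcript, and the probe set with the highest mean over the 12 arrays stood for each gene.

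The inhibitors hold pore formers and BH3-only proteins through a groove on their surface. BAX and BAK1, once released, permeabilise the outer mitochondrial membrane, cytochrome c escapes, and caspases are activated. BH3-only proteins start this by occupying the groove or by activating the pore formers directly. In myeloid cells MCL1 and BCL2A1 are known as short-lived survival factors, and many leukaemias depend on BCL2 or MCL1.

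The arrays came from U937, an established human cell line of monocyte-like leukaemia cells, which carried an EVI1 expression vector or the empty vector and were given all-trans retinoic acid (ATRA, a ligand of retinoic acid receptors that matures some leukaemic cells) at 1 µM or its solvent DMSO for 24 h. EVI1 is a zinc finger transcription factor and a myeloid oncogene. This gave 4 groups of 3 arrays: EVI1 ATRA, EVI1 DMSO, vector ATRA and vector DMSO. The labels give neither the promoter that drives EVI1 nor whether each transduced line was a pool or a single clone. They name no further EVI1 or vector line, so an effect of EVI1 cannot be told apart from other differences between the lines. Below, EVI1 under ATRA or DMSO means EVI1 cells against vector cells. The series calls the replicates biological.

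Levels are log2 signals, so a difference of 1 is a doubling, and levels of different probe sets are not comparable with each other. MECOM, the gene that encodes EVI1, read 2.61 to 3.60 on its 5 probe sets over all 12 arrays, below the lower quartile of every array (3.83 to 3.91), so the arrays do not check the EVI1 label and groups are called by their labels. Of 9 myeloid markers with a probe set, 8 reached a log2 signal of 5 on at least 3 arrays, and the mean of the 9 was 9.02 to 9.11 in EVI1 ATRA, 8.95 to 9.05 in EVI1 DMSO, 9.01 to 9.13 in vector ATRA and 8.91 to 9.07 in vector DMSO. The myeloid marker FCGR1A did not reach it. Among T and NK markers 4 of 6 reached it, with NKG7 highest at 7.18 to 8.33, and the list's mean was 5.28 to 5.39 in EVI1 ATRA, 5.23 to 5.37 in EVI1 DMSO, 5.25 to 5.49 in vector ATRA and 5.22 to 5.43 in vector DMSO. B markers reached it with 2 of 3, erythroid markers with 2 of 2 and epithelial markers with 0 of 3. The part of other cells in the results below was not tested. The DMSO arrays of replicate number 3 stood apart: the retinoid-induced gene DHRS3 read 9.70 in EVI1 and 8.70 in vector cells there, against 5.30 to 6.30 on the 4 other DMSO arrays.

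In EVI1 cells, ATRA raised MCL1 and BAK1, one inhibitor and one pore former. These 2 were the members called among 10, with 0 lower, where limma called 15.1% of all 14080 genes. A gene is called here at a Benjamini-Hochberg adjusted p under 0.05 over all genes tested. Arrays with the same replicate number deviated together in every group, so the fit was repeated with the number as a block. With the block BCL2A1 and BIK also rose and PMAIP1 fell, which makes 5 of 10 members against 35.7% of all genes. Without EVI1 ATRA 3 or EVI1 DMSO 2 the unblocked count was 0 of 10, without EVI1 DMSO 1 it was 1, and without EVI1 ATRA 1 or EVI1 DMSO 3 it was 3. The median difference of the 10 members was 0.09, against -0.02 over all genes, and the arrays of the groups did not overlap for 3 of 10, against 27.5% of all genes.

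In vector cells, limma called 0 of the 10 members with ATRA, where 3.52% of all genes were called. An unadjusted limma p under 0.05 was found for 1 of the 10 (BAX) and for 2454 of all 14080 genes. With the block BAX and BIK rose, 2 of 10 against 20% of all genes. The members' median difference was 0.09, against 0.00 over all genes, and arrays did not overlap for 3 of 10, against 23.4% of all genes.

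EVI1 cells given ATRA had more BCL2A1 and BAK1 than vector cells given ATRA. These 2 of 10 members were called, against 5.61% of all genes. With the block BCL2, MCL1 and BIK were also higher and BCL2L1 was lower, which makes 6 of 10, against 25.3% of all genes. The unblocked count was 0 without EVI1 ATRA 2 or 3, 1 without any 1 of the vector ATRA arrays and 4 without EVI1 ATRA 1. Of the differences 9 were positive and 1 negative, with a median of 0.31 against -0.01 over all genes. The arrays of the groups did not overlap for 6 of 10 members, against 21% of all genes.

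Under DMSO, limma called 0 of the 10 members between EVI1 and vector cells, where 1.21% of all genes were called. An unadjusted limma p under 0.05 was found for 5 of the 10 members and for 1379 of all 14080 genes. With the block BCL2A1, BAX, BIK and PMAIP1 were higher and BCL2L1 was lower, 5 of 10 against 7.19% of all genes. The median was 0.18 against 0.02 over all genes, and arrays did not overlap for 6 of 10 members, against 14.6% of all genes. No member was called for the interaction, the ATRA effect in EVI1 cells minus that in vector cells. Without the block limma called 0 of 14080 genes. The unadjusted p was under 0.05 for 362 genes and for 0 of the 10 members. With the block 0 genes were called too. There BCL2A1 had an unadjusted limma p of 0.00338 (adjusted 0.346), and the other members stayed above 0.05. The comparisons share arrays, so their calls are not independent of one another.

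**Figure D1:**
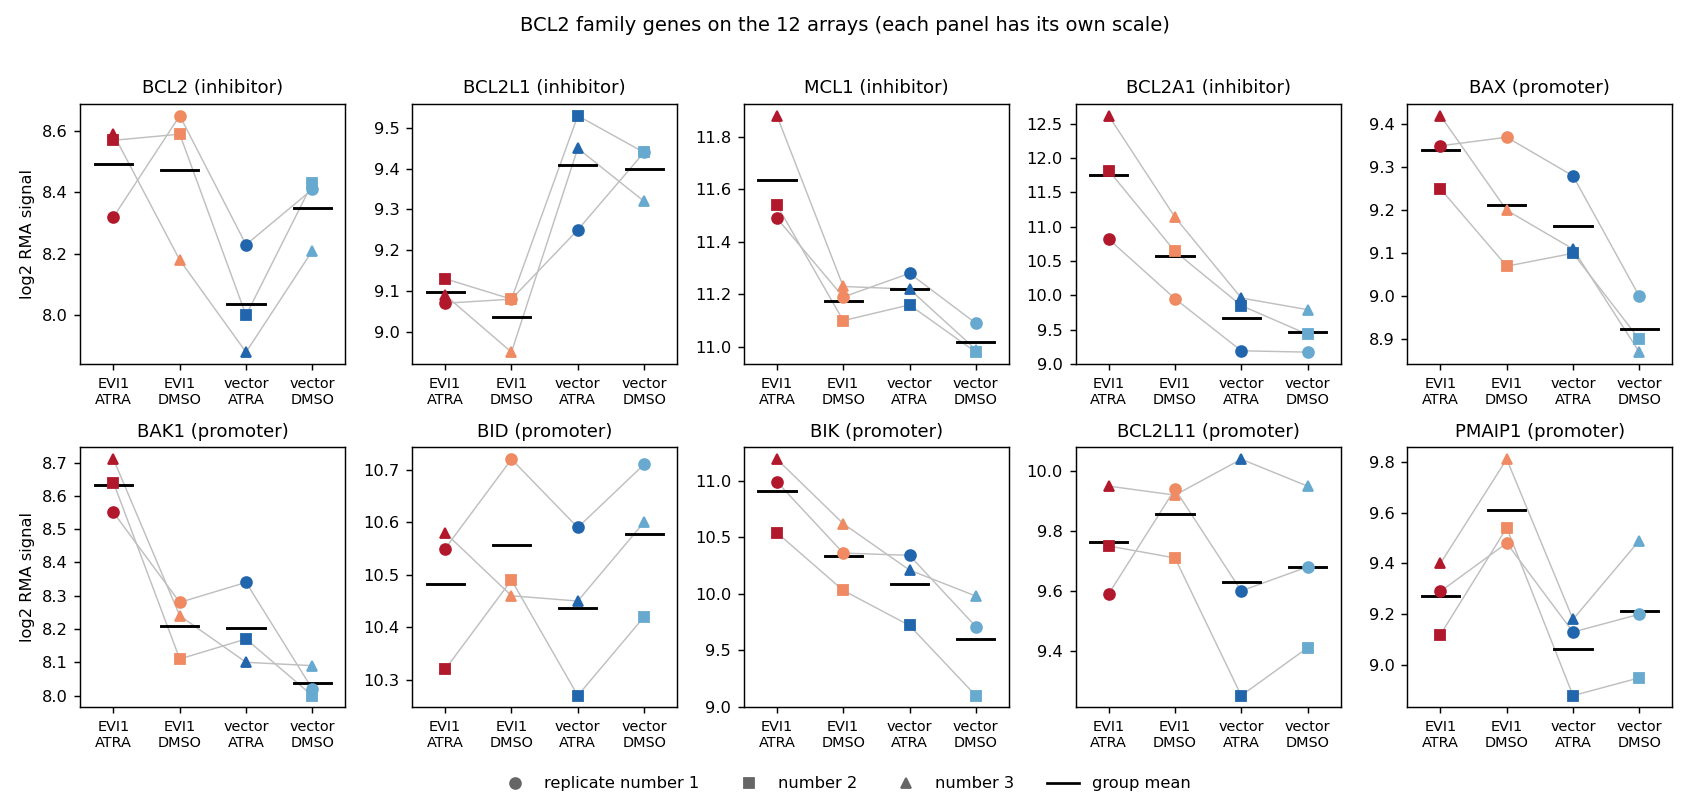
Log2 signal (vertical axis, a scale of its own in each panel) of the 10 genes on the 12 arrays, in EVI1 ATRA, EVI1 DMSO, vector ATRA and vector DMSO. Symbols give the replicate number, grey lines join arrays of the same number, and black bars are group means. BCL2A1 runs from 12.62 in EVI1 ATRA to 9.17 in vector DMSO, and its 3 lines keep their order in every group.

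Among the inhibitors, BCL2A1 moved most. BCL2A1 (also called BFL1 or A1) is a short-lived survival protein of leukocytes. Its promoter window is printed here because it is the member with the largest difference. The 250 bases before its start (RefSeq, GRCh38.p14, chr15:79971197-79971446, minus strand) are given 5′ to 3′, with matches to 2 of 4 motifs in capitals; the motifs were chosen with this window in view and searched on both strands.
BCL2A1: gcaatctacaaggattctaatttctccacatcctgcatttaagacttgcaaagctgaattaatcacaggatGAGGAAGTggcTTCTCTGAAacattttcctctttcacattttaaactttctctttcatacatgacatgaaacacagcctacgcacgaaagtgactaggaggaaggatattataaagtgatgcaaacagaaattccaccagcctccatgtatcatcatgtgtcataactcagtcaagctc
The first match, GAGGAAGT, holds the core bound by SPI1 (PU.1), begins 179 bases before the start and is found in 2.17% of 35114 promoter windows of the same length. The second, TTCNNNGAA, is the palindrome bound by STAT factors, begins 168 bases before the start and is found in 6.57% of windows. The motifs do not overlap. The retinoic acid receptor half-site AGGTCA (12.1% of windows) and GATAAG, part of the sequence bound by the first zinc fingers of EVI1 (5.65% of windows), have no match in this window. A match is a description of letters and does not show binding.

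BCL2A1 read 10.82, 11.82 and 12.62 in EVI1 ATRA and 9.95, 10.64 and 11.14 in EVI1 DMSO. It read 9.19, 9.85 and 9.96 in vector ATRA and 9.17, 9.43 and 9.79 in vector DMSO. The groups order as EVI1 ATRA, EVI1 DMSO, vector ATRA and vector DMSO, and the array of number 3 was the highest in each group. Under ATRA every EVI1 array lay above every vector array, and the difference was 2.09 ± 0.41 (SE, n = 3 each), which is 4.25-fold, with a limma adjusted p of 0.0141. The call was lost without EVI1 ATRA 2 (2.05, adjusted p = 0.0511), EVI1 ATRA 3 (1.65, 0.0547) or vector ATRA 1 (1.85, 0.0568), and held with the block (adjusted p = 0.00013).

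The other BCL2A1 differences were called only with the block or after an array was left out. Under DMSO, EVI1 arrays again lay above vector arrays, by 1.11 ± 0.41 (limma adjusted p = 0.316, blocked 0.00514). With ATRA in EVI1 cells the difference was 1.18 ± 0.41 (adjusted p = 0.0752, blocked 0.000739), and it was positive at all 3 replicate numbers (0.87, 1.18 and 1.48) although the groups overlapped. It was called without EVI1 ATRA 1 (1.64, adjusted p = 0.00778) or EVI1 DMSO 3 (1.46, 0.0477), and was 0.74 without EVI1 ATRA 3. In vector cells ATRA changed it by 0.20 ± 0.41 (adjusted p = 0.873, blocked 0.485), with a 95% interval from -0.69 to 1.10. The interaction was 0.97 ± 0.58 (adjusted p = 0.998, blocked 0.346), so the ATRA effects in EVI1 and vector cells were not shown to differ.

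MCL1, an inhibitor whose protein turns over quickly, was highest in EVI1 cells given ATRA. It read 11.49, 11.54 and 11.88 in EVI1 ATRA and 11.19, 11.10 and 11.23 in EVI1 DMSO, then 11.28, 11.16 and 11.22 in vector ATRA and 11.09, 10.98 and 10.99 in vector DMSO. EVI1 ATRA did not overlap with any other group, while EVI1 DMSO and vector ATRA overlapped. How many of all genes have a group apart from all others was not counted. ATRA raised MCL1 in EVI1 cells by 0.46 ± 0.11 (1.38-fold, limma adjusted p = 0.0173, blocked 0.0031). The call was lost without EVI1 ATRA 3 (0.34, adjusted p = 0.0693), EVI1 DMSO 1 (0.47, 0.0507) or EVI1 DMSO 2 (0.43, 0.0675).

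In vector cells the ATRA difference of MCL1 was 0.20 ± 0.11 (limma adjusted p = 0.397, blocked 0.162), with arrays that did not overlap and a 95% interval from -0.04 to 0.44. Under ATRA, MCL1 was 0.42 ± 0.11 above vector cells in EVI1 cells (limma adjusted p = 0.0511, blocked 0.00967). Of 12 fits that each left out 1 array, it was called in 1, without EVI1 ATRA 1 (0.49, adjusted p = 0.021). A signal limit of 6 (limma adjusted p = 0.04) or an intensity trend in the prior (0.0306) also gave a call. Under DMSO the difference was 0.15 ± 0.11 (adjusted p = 0.799, blocked 0.379), and the interaction was 0.26 ± 0.16 (adjusted p = 0.998, blocked 0.411). All 6 MCL1 probe sets had positive differences with ATRA in EVI1 cells, from 0.15 to 0.59. Over all 26235 probe sets bright enough to test, 2 of the 6 were called (11.7% of all probe sets) and 5 with the block (30.9%). The sixth was dim, with a mean of 4.83. Under DMSO, 3 of the 6 probe sets read higher in EVI1 than in vector cells and 3 lower, from -0.05 to 0.35.

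BCL2L1, which encodes the inhibitor BCL-xL and, by splicing, a shorter promoter of death, read lower on every EVI1 array than on any vector array. It read 9.07, 9.13 and 9.09 in EVI1 ATRA and 9.08, 9.08 and 8.95 in EVI1 DMSO, against 9.25, 9.53 and 9.45 in vector ATRA and 9.44, 9.44 and 9.32 in vector DMSO. All 6 EVI1 arrays lay below all 6 vector arrays, as 3.57% of genes did in one direction or the other. The difference was -0.31 ± 0.10 under ATRA (limma adjusted p = 0.0882, blocked 0.0175) and -0.36 ± 0.10 under DMSO (adjusted p = 0.12, blocked 0.0215).

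Every one of the 4 BCL2L1 probe sets was lower in EVI1 cells under both agents, and 3 of the 4 separated all EVI1 from all vector arrays (3.05% of all probe sets did). One of the dimmer probe sets had the largest gap, with 7.20 to 7.30 in EVI1 cells and 7.67 to 8.0 in vector cells. It alone was called without the block, at -0.64 ± 0.11 under ATRA (limma adjusted p = 0.01 over all probe sets) and -0.55 ± 0.11 under DMSO (0.0391), where 3.91% and 0.915% of all probe sets were called. With a mean over the 4 probe sets in place of the brightest one, BCL2L1 was called lower under ATRA (-0.41, adjusted p = 0.0127) and under DMSO (-0.45, 0.0135). Which splice form the probe sets read was not examined. ATRA left BCL2L1 within 0.06 of its DMSO level in both cell types, with 95% intervals from -0.15 to 0.27 in EVI1 cells and from -0.20 to 0.22 in vector cells (limma adjusted p = 0.78 and 0.978).

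BCL2, the founding inhibitor and the target of venetoclax, had its lowest group mean in vector cells given ATRA. It read 8.32, 8.57 and 8.59 in EVI1 ATRA and 8.65, 8.59 and 8.18 in EVI1 DMSO, then 8.23, 8.0 and 7.88 in vector ATRA and 8.41, 8.43 and 8.21 in vector DMSO. Under ATRA the EVI1 arrays lay above the vector arrays by 0.46 ± 0.15 (limma adjusted p = 0.0922, blocked 0.0219), and the difference was called without EVI1 ATRA 1 (0.54, 0.0426). This came from the brightest of 4 probe sets only. The other 3 gave 0.02, -0.09 and 0.11, none was called, and the mean over the 4 gave 0.12 (adjusted p = 0.673). ATRA in vector cells gave -0.31 ± 0.15 (adjusted p = 0.295, blocked 0.103), and ATRA in EVI1 cells gave 0.02 ± 0.15 (0.96), whose sign turned under some alternatives.

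**Figure D2:**
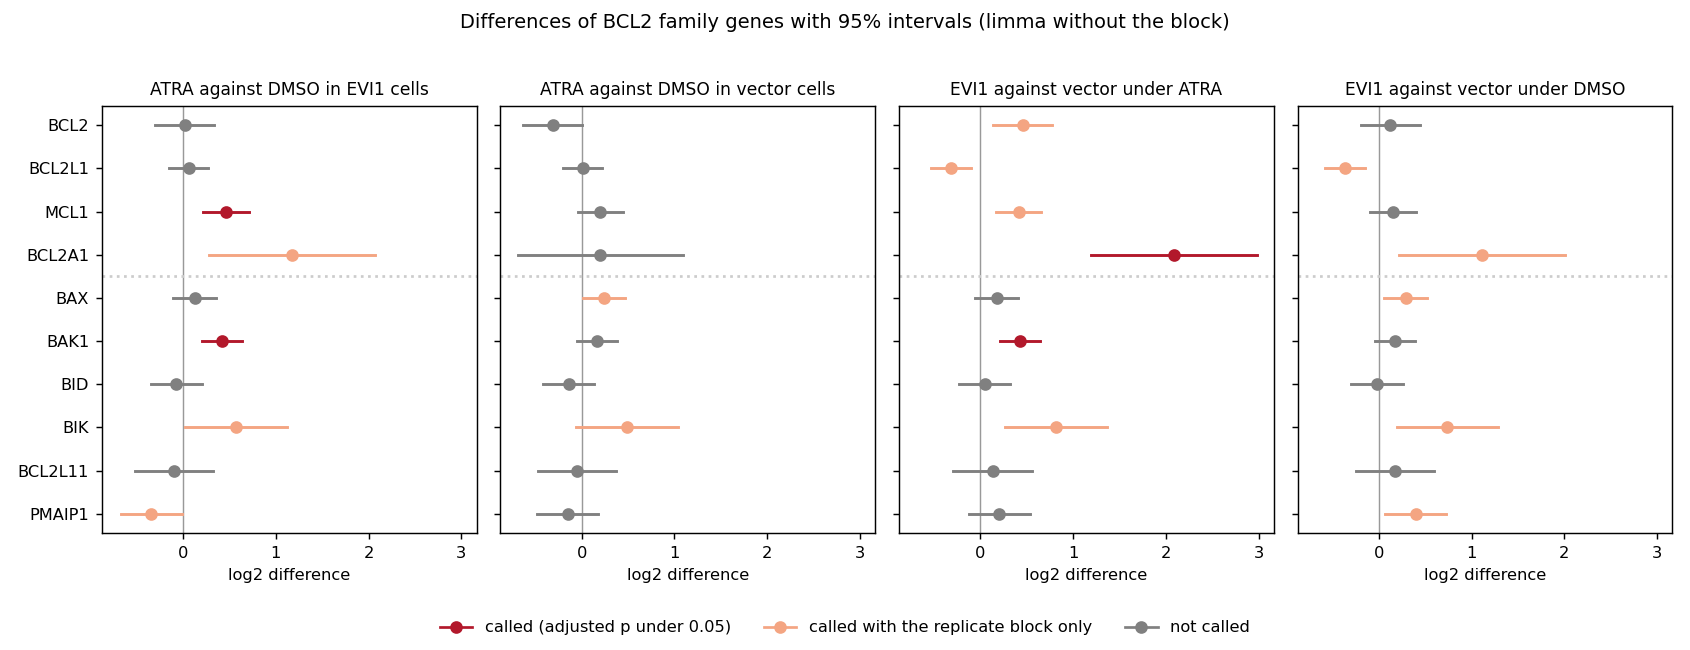
Log2 differences (horizontal axis) with 95% intervals from limma for the 10 genes in 4 comparisons; the dotted line parts inhibitors (above) from promoters (below). Dark red marks called genes, light red genes called with the replicate block only, grey the rest. The interval of BCL2A1 between EVI1 and vector cells under ATRA, from 1.19 to 2.98, lies farthest from 0.

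Among the pore formers, BAK1 was raised by ATRA in EVI1 cells. BAK1 resides on the outer mitochondrial membrane. It read 8.55, 8.64 and 8.71 in EVI1 ATRA and 8.28, 8.11 and 8.24 in EVI1 DMSO, then 8.34, 8.17 and 8.10 in vector ATRA and 8.02, 8.0 and 8.09 in vector DMSO. EVI1 ATRA arrays lay above all other arrays, and the share of all genes with such a pattern was not counted. The ATRA difference was 0.42 ± 0.10 in EVI1 cells (1.34-fold, limma adjusted p = 0.0149, blocked 0.00295), and the call was lost without EVI1 ATRA 3 (0.39, 0.0652) or EVI1 DMSO 2 (0.37, 0.0639).

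Under ATRA, BAK1 was 0.43 ± 0.10 above vector cells in EVI1 cells (limma adjusted p = 0.0271, blocked 0.00549). That call was lost without EVI1 ATRA 2 (0.43, 0.0822), EVI1 ATRA 3 (0.39, 0.114), vector ATRA 2 (0.41, 0.0939) or vector ATRA 3 (0.38, 0.11), and without both DMSO arrays of number 3 (0.43, 0.0536). The size of the difference stayed between 0.38 and 0.50 over the 12 fits that each left out 1 array. In vector cells ATRA gave 0.17 ± 0.10 (adjusted p = 0.429, blocked 0.198), under DMSO EVI1 gave 0.17 ± 0.10 (0.657, blocked 0.265), and the interaction was 0.26 ± 0.14 (0.998, blocked 0.388). BAK1 was read by 1 probe set.

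BAX, which moves from the cytosol to mitochondria when activated, was lowest in vector cells given DMSO. It read 9.35, 9.25 and 9.42 in EVI1 ATRA and 9.37, 9.07 and 9.20 in EVI1 DMSO, against 9.28, 9.10 and 9.11 in vector ATRA and 9.0, 8.90 and 8.87 in vector DMSO. All 9 arrays of the other groups lay above the 3 vector DMSO arrays. How many of all genes have a group apart from all others in this way was not counted. ATRA in vector cells gave 0.24 ± 0.11 (limma adjusted p = 0.263, blocked 0.0465) and EVI1 under DMSO gave 0.29 ± 0.11 (0.305, blocked 0.0427). Neither was called when the 2 BAX probe sets were tested among all probe sets, with or without the block (blocked adjusted p = 0.0662 and 0.0632 for the brighter one). ATRA in EVI1 cells gave 0.13 ± 0.11 (0.497), and EVI1 under ATRA gave 0.18 ± 0.11 (0.384).

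Among the BH3-only promoters, BIK was higher in EVI1 cells and with ATRA once arrays of the same number were paired. BIK was named for its interaction with BCL2 and sits mostly at the endoplasmic reticulum. It read 10.99, 10.54 and 11.19 in EVI1 ATRA and 10.36, 10.03 and 10.62 in EVI1 DMSO, then 10.34, 9.72 and 10.21 in vector ATRA and 9.71, 9.10 and 9.98 in vector DMSO. Number 2 was the lowest array of every group, and the groups order as for BCL2A1. Within a number, ATRA minus DMSO was 0.63, 0.51 and 0.57 in EVI1 cells and 0.63, 0.62 and 0.23 in vector cells. EVI1 minus vector was 0.65, 0.82 and 0.98 under ATRA and 0.65, 0.93 and 0.64 under DMSO.

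All 12 of these paired BIK differences were positive, but they share arrays and are not independent of one another. None of the group differences passed without the block. The difference was 0.82 ± 0.25 for EVI1 under ATRA (1.76-fold, limma adjusted p = 0.0822, blocked 0.00047) and 0.74 ± 0.25 for EVI1 under DMSO (adjusted p = 0.254, blocked 0.00146). For ATRA it was 0.57 ± 0.25 in EVI1 cells (adjusted p = 0.157, blocked 0.00109) and 0.49 ± 0.25 in vector cells (0.345, blocked 0.0058). Leaving out 1 array took the ATRA difference to between 0.42 (without EVI1 DMSO 2) and 0.75 (without EVI1 ATRA 2) in EVI1 cells. In vector cells it took it to between 0.245 (without vector DMSO 2) and 0.685 (without vector DMSO 3). The interaction was 0.08 ± 0.36 (adjusted p = 0.998, blocked 0.832), with a 95% interval from -0.70 to 0.85. BIK was read by 1 probe set.

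PMAIP1, which encodes NOXA, a BH3-only partner of MCL1 and a p53 target, fell with ATRA in EVI1 cells once arrays of the same number were paired. It read 9.29, 9.12 and 9.40 in EVI1 ATRA and 9.48, 9.54 and 9.81 in EVI1 DMSO, then 9.13, 8.88 and 9.18 in vector ATRA and 9.20, 8.95 and 9.49 in vector DMSO. EVI1 DMSO was the highest group and lay above all EVI1 ATRA arrays. ATRA in EVI1 cells gave -0.34 ± 0.15 (limma adjusted p = 0.16, blocked 0.0102), and EVI1 under DMSO gave 0.40 ± 0.15 (0.344, blocked 0.0195). Both PMAIP1 probe sets had these directions, and both were called with the block among all probe sets, where it called 30.9% for ATRA in EVI1 cells and 5.39% for EVI1 under DMSO. ATRA in vector cells gave -0.15 ± 0.15 (0.696, blocked 0.256) and EVI1 under ATRA gave 0.21 ± 0.15 (0.493, blocked 0.103). The dimmer probe set gave -0.26 (blocked limma adjusted p = 0.0507 over all probe sets) and 0.27 (0.0322) there. In these comparisons the block called 15.2% and 20.9% of all probe sets. The DMSO arrays of number 3 held the highest PMAIP1 value of each DMSO group. Without both, the unblocked ATRA difference was -0.24 in EVI1 cells (limma adjusted p = 0.308) and -0.01 in vector cells (0.98). EVI1 under DMSO then gave 0.435 (0.509).

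BID and BCL2L11 were not called in any comparison, with or without the block. BID, which links death receptors to mitochondria after cleavage by caspase 8, stayed between 10.27 and 10.72 on the 12 arrays. Its differences ran from -0.14 to 0.05, and the SD within each group was 0.14 to 0.16. The 95% interval of its ATRA effect ran from -0.35 to 0.20 in EVI1 cells and from -0.42 to 0.14 in vector cells. BCL2L11, which encodes BIM, a BH3-only protein that binds all the inhibitors, stayed between 9.25 and 10.04, with a 95% interval from -0.51 to 0.33 for ATRA in EVI1 cells.

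The 7 probe sets of BCL2L11 mostly read lower with ATRA but by unlike amounts, with differences from -0.49 to 0.15 in EVI1 cells. With ATRA, 6 of 7 were lower in EVI1 cells and 7 of 7 in vector cells, where none was called (2.29% of all probe sets were). One was called lower in EVI1 cells, at -0.44 ± 0.10 (limma adjusted p = 0.0194 over all probe sets, where 11.7% were called). It read 4.95, 5.11 and 5.06 in EVI1 ATRA against 5.40, 5.51 and 5.53 in EVI1 DMSO, which is near the signal limit of 5. A second was at -0.49 ± 0.19 (adjusted p = 0.126, blocked 0.0134). The brightest, at -0.09 ± 0.19, was not called. The probe sets are annotated to different transcript records, and which isoforms they read was not examined.

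**Figure D3:**
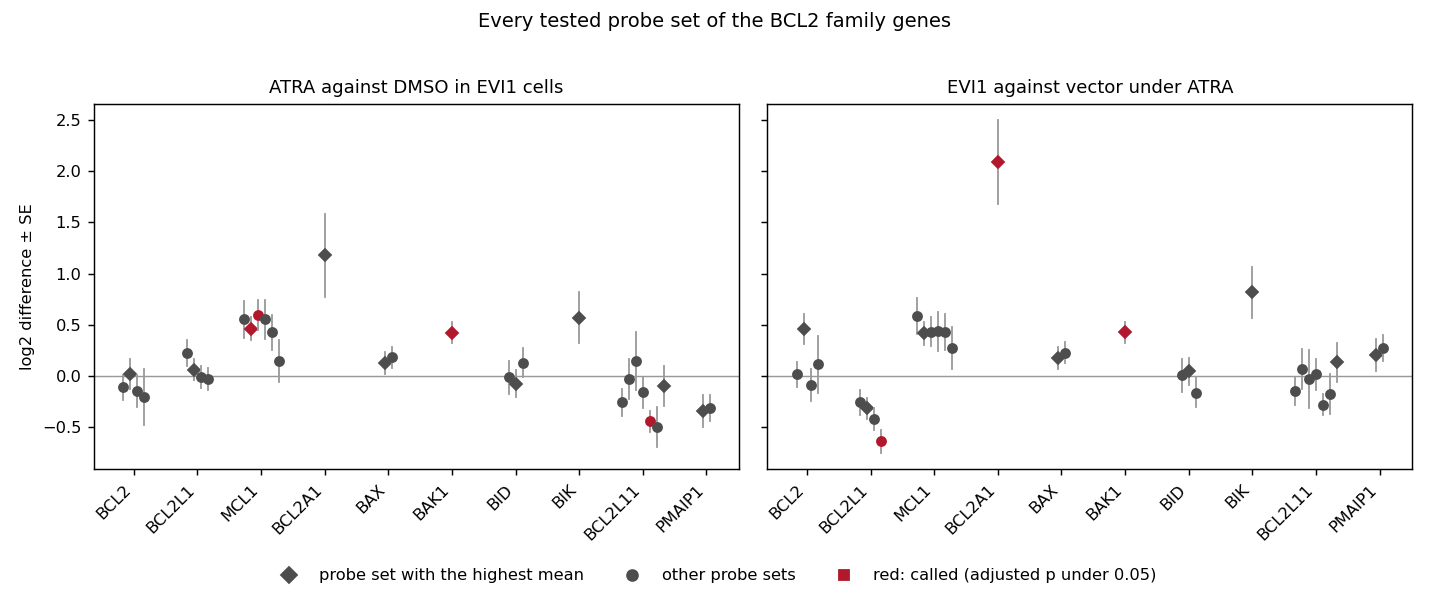
Log2 difference ± SE (vertical axis) of each of the 31 probe sets of the 10 genes, for ATRA against DMSO in EVI1 cells (left) and for EVI1 against vector cells under ATRA (right). Diamonds are the brightest probe set of a gene and red marks calls over all probe sets. The 6 MCL1 probe sets lie above 0 in both panels and the 4 BCL2L1 probe sets lie below 0 in the right panel.

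Both sides of the family held members that were higher in EVI1 cells given ATRA. With the block, 3 inhibitors (BCL2, MCL1 and BCL2A1) and 2 promoters (BAK1 and BIK) were higher than in vector cells given ATRA, and 1 inhibitor (BCL2L1) was lower, where the block called 25.3% of all genes. The median difference there was 0.44 for the 4 inhibitors and 0.19 for the 6 promoters, against -0.01 over all genes. The BCL2 call came from the brightest of its probe sets only, and the mean over its probe sets gave 0.12 (limma adjusted p = 0.673). The inhibitor median lies between BCL2 and MCL1, so it rests in part on that probe set. With ATRA in EVI1 cells, 2 inhibitors rose with the block, and of the promoters 2 rose and 1 fell, where the block called 35.7% of all genes. The medians were 0.26 for inhibitors and 0.03 for promoters, against -0.02 over all genes. Transcript levels of either kind do not give the balance of the proteins, several of which are controlled after transcription.

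Among other BCL2 relatives, BMF was the gene called with ATRA in EVI1 cells. BMF is a BH3-only promoter tied to the cytoskeleton. It read 7.25, 7.30 and 8.06 in EVI1 ATRA against 6.14, 6.48 and 7.0 in EVI1 DMSO, a difference of 1.00 ± 0.23 (limma adjusted p = 0.0151). The call was lost without EVI1 ATRA 3, EVI1 DMSO 1 or EVI1 DMSO 2, with differences no smaller than 0.74 and adjusted p up to 0.0627. Of 12 relatives tested, 1 rose and 0 fell there, against 15.1% of all genes called, and with the block 3 rose and 1 fell, against 35.7%. In the 3 other comparisons of groups 0 of 12 were called by limma, where 3.52%, 5.61% and 1.21% of all genes were called for ATRA in vector cells, EVI1 under ATRA and EVI1 under DMSO. With the block 1 rose and 2 fell with ATRA in vector cells (20% of all genes called), 5 were higher in EVI1 cells under ATRA (25.3%) and 1 was higher under DMSO (7.19%). BNIP3L, a mitophagy receptor, was called with the block in all 4 comparisons, at 0.68, 0.44, 0.81 and 0.57 for ATRA in EVI1 cells, ATRA in vector cells, EVI1 under ATRA and EVI1 under DMSO (limma adjusted p = 0.0778 to 0.451 without the block).

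Downstream of the mitochondria, ATRA raised 2 genes of the death route and lowered 2 in EVI1 cells. CASP9, the initiator caspase of this route, rose by 0.68 ± 0.16 (limma adjusted p = 0.0173), and BIRC2, an inhibitor of apoptosis protein, rose by 0.64 ± 0.14 (0.0114). HTRA2, a protease released from mitochondria, fell by 0.65 on the log2 scale (SE 0.15, adjusted p = 0.0135), and ENDOG, a mitochondrial nuclease, also fell by 0.65 (SE 0.17, 0.0278). These 4 of 9 genes tested were called, 2 in each direction, where 15.1% of all genes were. With the block 4 rose and 3 fell, against 35.7% of all genes. Without EVI1 ATRA 3 or EVI1 DMSO 1, CASP9, HTRA2 and ENDOG lost their calls, CASP9 and ENDOG also without EVI1 DMSO 2 and HTRA2 also without EVI1 ATRA 2, with an adjusted p up to 0.121. BIRC2 kept its call in all 19 alternatives.

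In vector cells, limma called 0 of these 9 genes with ATRA, against 3.52% of all genes. With the block CASP9 (0.40), the apoptosome scaffold APAF1 (0.36) and BIRC2 (0.42) rose while HTRA2 (-0.30) and cytochrome c, CYCS (-0.27), fell. These 5 of 9 compare with 20% of all genes. Between EVI1 and vector cells under ATRA only HTRA2 was called (1 of 9, against 5.61% of all genes), at -0.60 ± 0.15 (limma adjusted p = 0.0375). The call was lost in 9 of 19 alternatives (adjusted p up to 0.163), among them those without EVI1 ATRA 2, EVI1 ATRA 3 or any 1 vector ATRA array. With the block 3 were higher and 3 lower there, against 25.3% of all genes called. Under DMSO 0 of 9 were called, against 1.21% of all genes. With the block, which called 7.19% of all genes, AIFM1, a mitochondrial flavoprotein, was higher (0.37).

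Enzymes that control MCL1 protein showed no call without the block. The ligases HUWE1, FBXW7 and BTRC, which mark MCL1 for breakdown, and the deubiquitinase USP9X, which spares it, were all tested. Without the block limma called 0 of 4 in each of the 5 comparisons. Of all genes, it called 15.1% with ATRA in EVI1 cells and 3.52% in vector cells. It called 5.61% for EVI1 under ATRA, 1.21% for EVI1 under DMSO and 0 genes for the interaction. With the block USP9X was higher with ATRA in EVI1 cells (0.25 ± 0.11, adjusted p = 0.147, blocked 0.0168) and in EVI1 over vector cells under ATRA (0.26 ± 0.11, 0.184, blocked 0.0199). The block called 35.7% and 25.3% of all genes in these comparisons. The probe set of HUWE1 read 14.20 to 14.29 on the 12 arrays, near the top of the signal range, where a change could go unseen, so its small differences do not show an unchanged level.

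Of 13 transcription factors known to act on family genes, 3 were called with ATRA in EVI1 cells, against 15.1% of all genes. MYC, which raises death-promoting members, fell by 1.80 (SE 0.18, limma adjusted p = 0.000465), ATF4, a stress factor that activates PMAIP1, fell by 0.85 (SE 0.25, 0.0378), and STAT3, an activator of MCL1, rose by 0.50 ± 0.15 (0.0494). STAT3 was near the threshold and lost the call in 15 of 19 alternatives, with an adjusted p up to 0.198. Its difference was 0.26 with the mean of all probe sets and 0.32 without EVI1 ATRA 3. ATF4 lost it in 6, each without 1 array: EVI1 ATRA 2 or 3, EVI1 DMSO 1 or 2, vector ATRA 2 or vector DMSO 2 (adjusted p up to 0.165). In vector cells MYC alone was called (1 of 13, against 3.52% of all genes), at -0.86 ± 0.18 (0.0286), and the call was lost without any 1 of the 6 vector arrays (adjusted p up to 0.118).

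Under ATRA, STAT3 was 0.72 ± 0.15 higher in EVI1 than in vector cells (limma adjusted p = 0.0202) and MYC was lower (-0.86 ± 0.18, 0.0203). STAT3 read 9.64, 9.95 and 10.32 in EVI1 ATRA against 9.17, 9.44 and 9.13 in vector ATRA, with no overlap. Without EVI1 ATRA 2, vector ATRA 1 or vector ATRA 3 both lost their calls, and without EVI1 ATRA 3 STAT3 did (adjusted p up to 0.0838). These 2 of 13 compare with 5.61% of all genes called. With the block 4 factors were higher and 4 lower, against 25.3% of all genes. Under DMSO limma called 0 of 13, against 1.21% of all genes. With the block, which called 7.19% of all genes, FOXO1, an activator of BCL2L11, was higher (0.36 ± 0.14, limma adjusted p = 0.393, blocked 0.012). SPI1, whose core motif stands in the BCL2A1 window, differed by 0.32 in EVI1 ATRA over EVI1 DMSO and was not called in any comparison.

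**Figure D4:**
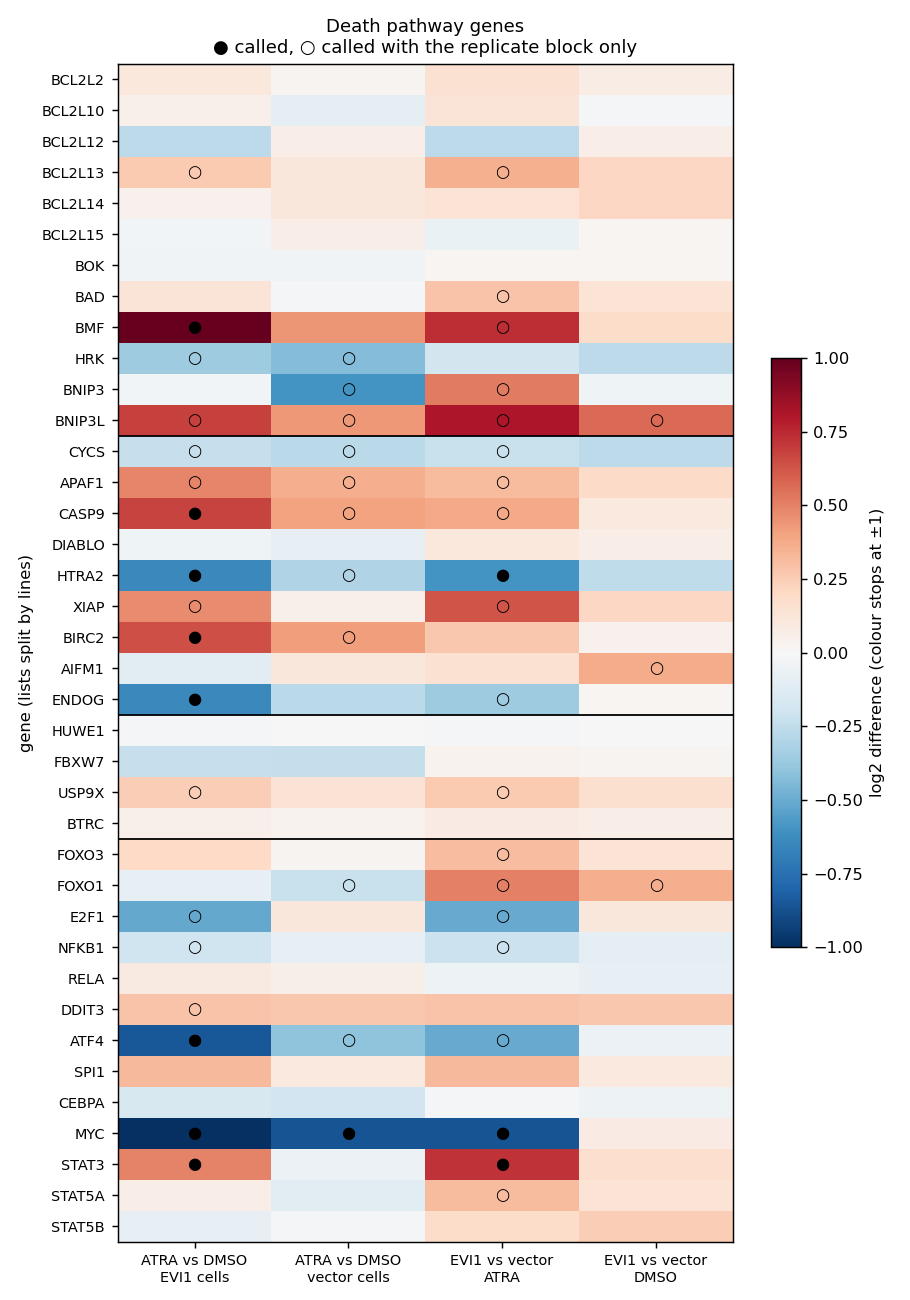
Log2 differences (colour, stopping at ±1) of the tested genes of 4 lists, from top to bottom other BCL2 relatives, the mitochondrial route, MCL1 turnover and transcription factors, in 4 comparisons. Filled circles mark calls and open circles calls with the replicate block only. ATRA in EVI1 cells has 8 filled circles, vector cells have 1, and EVI1 against vector under DMSO has none.

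The genes whose levels followed each called member most closely were found by the root mean square (RMS) difference over the 12 arrays, each gene centred on its own mean. For BCL2A1, whose SD over the arrays was 1.07, they were HLA-DMA (RMS 0.309), FABP4 (0.368) and OAS2 (0.376). They encode an MHC class II loading chain, a fatty acid binding protein and an interferon-induced synthetase. For MCL1, with an SD of 0.26, they were YIPF6 (0.0608), TRAFD1 (0.0639) and ADAM17 (0.0691). For BAK1, with an SD of 0.24, they were NUDT22 (0.0507), LGALS8 (0.0557) and ERP44 (0.0672). Arrays of one group share their treatment, so this likeness is a description.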

How the data were processed

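Gene expression was read on Affymetrix 3′ arrays from 250 ng of total RNA per sample, per the labels' protocols. The deposited values are on a log2 scale and were made by the authors with RMA, per the submitters' processing notes. These also name Expression Console 1.3 from Affymetrix, and its settings are not given in the sources used here. No further scaling was applied, since array medians lay between 5.29 and 5.35.

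Probe sets with exactly 1 symbol (41097 of 54675) gave 19775 genes; genes were tested if they reached 5 on at least 3 arrays. Group means of all 12 arrays were fitted by lmFit and eBayes (limma 3.58.1, R 4.3.3), leaving 8 residual degrees of freedom, and p-values were adjusted over 14080 genes, and separately over 26235 probe sets. The fit without the block was tested on simulated arrays, which did not deviate together by replicate number as the real ones did. The blocked fit was not tested in this way. For EVI1 against vector under ATRA, 31.3% of log2 changes of 0.5 were recovered, 88.1% of 1 and 100% of 2, with 10 wrong calls. These changes were given to 67, 67 and 66 genes. The real comparison called 790 genes, so the shares may differ in the real data. A difference near 0.5 can thus go uncalled. The number of arrays limits the precision.

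Arrays of the same replicate number deviated together: deviations from group means correlated at 0.408 to 0.704 in all 18 same-number pairs. The median was -0.336 in 36 other pairs. Deviations within a group sum to 0, so this negative median follows largely from the positive values and is not separate evidence. The blocked fit has 6 residual degrees of freedom. Members and lists were chosen with earlier results of these data known. All 10 members are named. Other genes named are, per list and comparison, all those called if 5 or fewer, and in addition some called only with the block, chosen after their values were seen. Of 43 listed genes 38 were tested here. Alternatives changed the filter, probe set rule, block, scaling, prior and arrays used.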

Additional observations from a re-analysis of the deposited data

How the results depend on the processing

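Of 950 member values under 19 alternatives (50 values each), 880 kept their direction and side of the threshold, 22 were called only in the alternative, 13 lost a call and 35 changed sign, none of them where either value was called. The replicate block moved the counts of called genes to 5023 for ATRA in EVI1 cells, 2818 for ATRA in vector cells, 3559 for EVI1 under ATRA and 1013 for EVI1 under DMSO, against 2127, 496, 790 and 171 without it, and the counts of called members to 5, 2, 6 and 5, against 2, 0, 2 and 0; the interaction had 0 both ways. Leaving out 1 array at a time gave 895 to 3229, 71 to 633, 262 to 1957 and 77 to 190 genes, and 0 to 3, 0, 0 to 4 and 0 members; for the interaction it gave 0 to 1 genes. The count rose most without EVI1 ATRA 1 (3229 and 1957). Without both DMSO arrays of number 3, 35 genes were called for EVI1 under DMSO and 1 member for EVI1 under ATRA. With the mean of all probe sets 1 member (BCL2L1) was called for EVI1 under DMSO.

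Sign changes, all uncalled, came with the mean of all probe sets for BCL2 (-0.11) and BID (0.0144) with ATRA in EVI1 cells, for BCL2L11 (-0.0586) and BID (-0.0356) with EVI1 under ATRA and for BCL2L11 (-0.0514) with EVI1 under DMSO. Without both DMSO arrays of number 3 they came for BCL2 with ATRA in EVI1 cells (-0.13), for BCL2L1 (-0.03) and BCL2L11 (0.085) with ATRA in vector cells and for BID (0.04) with EVI1 under DMSO. Over single arrays left out, values crossing 0 were BCL2 (-0.13 to 0.11) and BID (-0.12 to 0.0083) with ATRA in EVI1 cells, BCL2L1 (-0.05 to 0.09) and BCL2L11 (-0.26 to 0.14) with ATRA in vector cells, BCL2L11 (-0.0567 to 0.34) and BID (-0.0367 to 0.13) with EVI1 under ATRA, and BID (-0.10 to 0.0467) with EVI1 under DMSO; for the interaction they were BCL2L1 (-0.03 to 0.11), BCL2L11 (-0.2333 to 0.1617), BID (-0.0167 to 0.1483) and BIK (-0.115 to 0.325). The cause of these changes was not tested. The block changed no other call of a member than those named in the results.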
